A study of Mus musculus with 4 samples.

Results

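Transcription factor genes of the switch from making neurons to making glia were followed, 10 in all: the nuclear factor I genes Nfia, Nfib, Nfic and Nfix, the Sox genes Sox9, Sox5 and Sox6, and Zbtb20, Zeb2 and Cebpd. They were taken by symbol, and all 10 were found among the 35857 genes listed. The libraries held poly(A)-selected RNA of C57BL/6 mouse neural stem cells from the embryonic cerebral cortex, 24 hr after glial differentiation was induced. Qk_KO cells (genotype Qk-/-, 2 libraries) are labelled as knockout of Qk, which encodes the RNA-binding protein Quaking, and control cells (2 libraries) are wild type. Neither the way Qk was deleted nor the origin of the replicates from separate cultures is stated, so p-values measure only the spread between these libraries, which may be technical. The comparison asked how loss of Qk bears on genes of the neurogenic to gliogenic switch.

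During development of the cortex, radial glia first make neurons and later astrocytes and oligodendrocytes. Sox9 acts early in this change and induces Nfia, and NFI proteins then bind and open promoters of astrocyte genes such as Gfap. Sox5 and Sox6 are SoxD proteins without an activation domain of their own. In mice, Zbtb20 and C/EBP factors favour astrocyte genes, and Zeb2, a partner of Smad proteins, is needed for myelination.

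Quaking binds RNA through the core ACUAAC or ACUAAU, often in 3′ untranslated regions. Such cores, written here as DNA on the transcript's strand, are shown in capitals for the member whose level fell in Qk_KO, for both members with the highest levels, and for the member with the most cores per length. Each site is given with 12 bases on either side. The sites are in the 3′ untranslated region of the transcript with the longest such region in GENCODE M21 (GRCm38). TAAC or TAAT, a shorter match, was also sought within 20 bases on either side of each core. Of the sites shown, only that of Zeb2 at chr2:44988313-44988342 had one.
Cebpd, chr16:15888624-15888653, plus strand: cgggaaagcatgACTAATtcatgtgtgtga
Nfix, chr8:84705033-84705062, minus strand: tatatatatagtACTAATggatttggtgtg
Nfib, chr4:82296524-82296553, minus strand: gcacttacagtcACTAATtcccttaaggtt
Zeb2, chr2:44988313-44988342, minus strand: tgtggttcagagACTAATtcctgtgtttaa
Zeb2, chr2:44985489-44985518, minus strand: tgcaatttagccACTAATagtattgcacat
Zeb2, chr2:44985131-44985160, minus strand: ttctcagccagaACTAACagcgttcatctc
Zeb2, chr2:44984595-44984624, minus strand: atcactcacagaACTAATactaaaagaggg

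Cebpd held 1 core in 2900 bases, and 58.5% of the 1680 other genes with a 3′ untranslated region of like length (0.8 to 1.2 times) held at least 1. Nfix and Nfib also held 1 each, where 68.5% of genes of like length did so for Nfix and 86.2% for Nfib. Zeb2 held 4 cores in 4941 bases, a number reached by 8.81% of genes of like length. Zeb2 was picked as the member with the most cores per length, so this percentage is the extreme of the 10 and no test. Nfia held 3, Sox6 held 2, Sox5 held 1, and Zbtb20 held 6 in a region of 23858 bases. Nfic and Sox9 held none of these letters in the region searched. For most of the factors, having a core was thus what most genes of like length showed, and a match is neither a measured binding site nor a cause.

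The knockout label was checked first. Qk was at 36.1 and 43.7 TPM (a gene's share of all transcripts scaled for transcript length) in Qk_KO, against 208 and 215 TPM in control, so that all 4 libraries matched their labels and 18.9% of the control level was left. TPM keeps no read depth, so no counting interval can be given. The 13260 genes that averaged 1 TPM or more were tested with limma on log2(TPM + 1), with Benjamini-Hochberg adjustment and a threshold of 0.05, and all 10 factors were among them. Qk_KO replicate 1 stood apart in genes of the GABAergic interneuron lineage, whose 11 markers summed to 188 TPM there and to 36.0 TPM in Qk_KO replicate 2, against 44.3 and 28.7 TPM in control. Its smooth muscle actin Acta2 was also highest, at 3484 TPM, against 1604 TPM in Qk_KO replicate 2 and 1289 and 1130 TPM in control.

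In Qk_KO cells 1 of the 10 factors, Cebpd, fell, none rose and 9 did not pass the test. Of all genes tested, 3.24% were called, 1.42% lower and 1.83% higher. At an unadjusted p under 0.05 in limma there were 4 of the 10, Cebpd, Nfix, Nfib and Zbtb20, beside 28.4% of all genes tested. Both Qk_KO values lay above both control values for Nfib, Nfix and Zbtb20 and below them for Cebpd, Sox5 and Nfic, that is for 6 of 10 factors, and 61.1% of all genes tested lay apart in this way (33.6% above and 27.5% below). The groups overlapped for Nfia, Sox9, Sox6 and Zeb2. The median log2 fold change of the 10 was 0.02, beside 0.0358 over all genes tested, and their median size of change was 0.19, beside 0.231. By these counts and medians most of the factors sat within the range of the transcriptome at large.

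**Figure D1:**
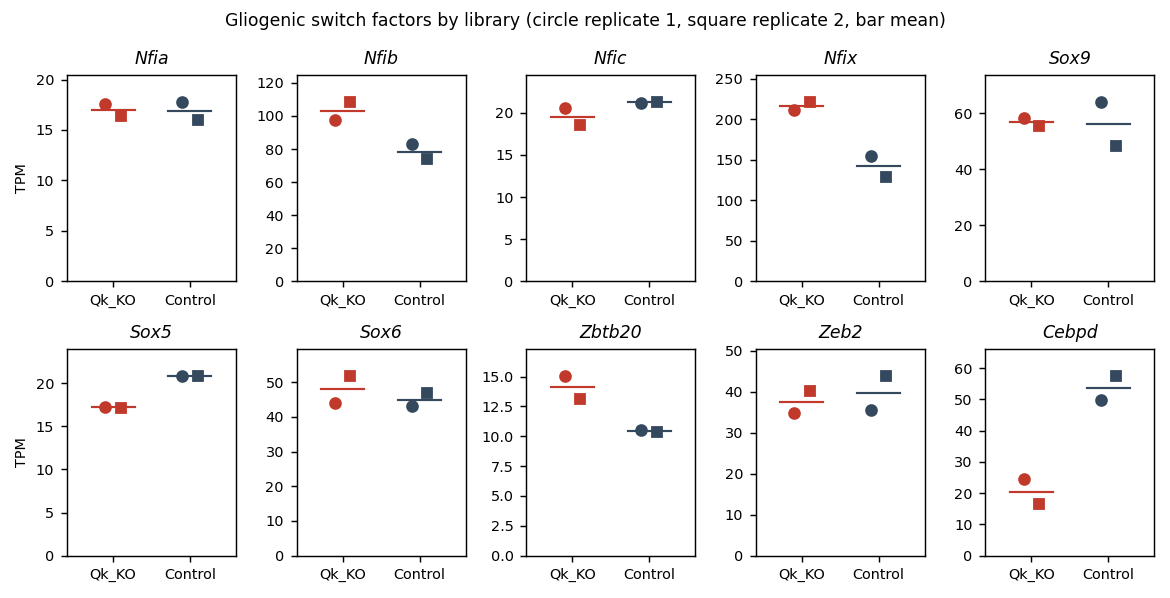
TPM of each of the 10 factors in each library, on linear axes that start at 0, with Qk_KO in red left of control in dark blue; circles are replicate 1, squares replicate 2 and bars the means of 2 libraries. Cebpd lies lower in both Qk_KO libraries, Nfix and Nfib lie higher, and the values of Nfia, Sox9, Sox6 and Zeb2 overlap.

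The factors spanned a wide range of abundance. In Qk_KO cells Nfix was the most abundant, at a mean of 217 TPM, followed by Nfib at 103 TPM, Sox9 at 56.7 TPM, Sox6 at 47.9 TPM, Zeb2 at 37.6 TPM and Cebpd at 20.5 TPM. Nfic, Sox5, Nfia and Zbtb20 were the least abundant there, at 19.5, 17.2, 17.0 and 14.1 TPM. The values of neighbours in this order overlapped for Cebpd and Nfic and for Sox5 and Nfia, and not for the other neighbours. Control cells had the order Nfix, Nfib, Sox9, Cebpd, Sox6, Zeb2, Nfic, Sox5, Nfia, Zbtb20, with means from 142 TPM down to 10.4 TPM and overlap between the neighbours Sox9 and Cebpd and between Sox6 and Zeb2. Cebpd was the sixth of the 10 in Qk_KO and the fourth in control.

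Cebpd encodes C/EBP delta, a basic leucine zipper factor that cytokines of the interleukin 6 family induce through STAT3. The gene lies on chromosome 16 from 15887286 to 15891031 on the plus strand of GRCm38. It was at 24.6 and 16.4 TPM in Qk_KO, against 49.9 and 57.5 TPM in control. Both Qk_KO libraries were far below both control libraries. The means were 20.5 ± 5.80 TPM in Qk_KO and 53.7 ± 5.43 TPM in control (SD, n = 2 each). The log2 fold change was -1.37 (SE 0.205, 95% interval -1.88 to -0.86) and passed at an adjusted p of 0.0426 in limma, and 98.4% of genes tested had a smaller change. The call was lost without control replicate 1 (adjusted p = 0.107), without control replicate 2 (0.262), without Qk_KO replicate 2 (0.0593), with no filter on low genes (0.141) and without limma's trend (0.078), while the log2 fold change stayed between -1.65 and -1.09 over all 12 alternatives.

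Other C/EBP genes and their partners were read from a list of 9 genes, of which 8 were tested. None was called, 6 of 8 had a negative log2 fold change, and the median was -0.22. Cebpb, a relative that cytokines also induce, was at 9.93 and 9.57 TPM in Qk_KO, against 15.7 and 17.1 TPM in control, with a log2 fold change of -0.69 and an adjusted p of 0.0522 in limma. Cebpa and Cebpg, at 3.66 and 3.50 TPM and at 15.8 and 15.1 TPM in Qk_KO, lay close to their control values of 3.74 and 3.80 TPM and of 16.3 and 15.3 TPM. Ddit3, the stress-induced partner known as CHOP, was at 70.4 and 84.8 TPM in Qk_KO, against 127 and 110 TPM in control (adjusted p = 0.0662, limma). The most abundant genes of the list, Atf4 and Atf5, both of the stress response, averaged 368 ± 32.6 and 125 ± 13.9 TPM in Qk_KO and 479 ± 49.4 and 114 ± 14.4 TPM in control (SD, n = 2 each), and neither was called. Cebpb, Cebpa, Cebpg and Ddit3 were named after their values were seen. Stat3, the gene of the transducer above Cebpd, was at 166 and 185 TPM in Qk_KO, against 167 and 150 TPM in control, with overlap. It was also named after its values were seen. The activity of STAT3 protein was not measured, and its part in the Cebpd values was not tested.

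Microglia and macrophages also express Cebpd. All 10 tested markers of 16 lay lower in both Qk_KO libraries than in both control libraries. Of all genes tested, 27.5% lay apart in this direction. None of the 10 markers was called, and their median log2 fold change was -0.94. The filter took the mean over both groups, so Adgre1 and Cx3cr1 were tested only through their control values. These averaged 0.57 and 0.76 TPM in Qk_KO, against 1.54 and 2.33 TPM in control. All 16 markers summed to 32.4 and 24.0 TPM in Qk_KO, against 68.3 and 56.9 TPM in control. Of the defining markers, P2ry12 was at 0 and 0.04 TPM in Qk_KO and at 0 and 0.03 TPM in control. Tmem119 was at 0.53 and 1.21 TPM in Qk_KO, against 0.74 and 0.47 TPM in control. Both fell under the filter and were named after their values were seen. Aif1, Itgam, Ptprc and Ly86, also under the filter, had lower means in Qk_KO than in control. The most abundant markers, Tyrobp and C1qb, were at 5.37 and 3.38 TPM and at 5.09 and 3.24 TPM in Qk_KO, against 11.9 and 9.88 TPM and 9.89 and 9.58 TPM in control. The part of these cells in the Cebpd result was not tested, and in bulk RNA fewer cells of a type and less RNA per cell cannot be told apart.

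Nfix, the most abundant of the factors, restrains proliferation of neural stem cells in mice, and it lies on chromosome 8 from 84699876 to 84800344 on the minus strand. It was at 211 and 222 TPM in Qk_KO, against 155 and 129 TPM in control. Both Qk_KO libraries were thus above both controls, and the controls differed more from each other than the Qk_KO libraries did. The means were 217 ± 7.73 TPM in Qk_KO and 142 ± 18.4 TPM in control (SD, n = 2 each). The log2 fold change was 0.61 (SE 0.117, 95% interval 0.32 to 0.90), and the adjusted p in limma was 0.0536, just short of the threshold. It passed at a mean of at least 5 TPM, where fewer genes are tested (adjusted p = 0.0492, limma), and with a block for the replicate number (0.0426). It did not pass under the other 10 alternatives, among them no filter (0.145) and no trend (0.0986). The log2 fold change stayed between 0.48 and 0.74 over all 12 alternatives.

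Nfib, which with Nfia drives glial differentiation of cortical and hippocampal progenitors in mice, lies on chromosome 4 from 82290173 to 82705750 on the minus strand. It was at 97.7 and 109 TPM in Qk_KO, against 83.0 and 73.9 TPM in control, without overlap. The log2 fold change was 0.39 (SE 0.111, 95% interval 0.12 to 0.67), and limma's adjusted p was 0.0967. Nfia, the NFI gene that Sox9 induces, lies on the same chromosome from 97772734 to 98118874 on the plus strand. It was at 17.6 and 16.4 TPM in Qk_KO, against 17.8 and 15.9 TPM in control, and each group spanned nearly the same range. Its log2 fold change was 0.01 (SE 0.127), and the 95% interval, -0.31 to 0.33, corresponds to between 0.809 and 1.26 times the control level on the TPM + 1 scale. Nfic, the NFI gene best known for tooth root formation (chromosome 10, 81396186 to 81455635, minus strand), was at 20.6 and 18.5 TPM in Qk_KO, against 21.1 and 21.3 TPM in control. Its Qk_KO values lay below the controls by little, with a log2 fold change of -0.12 (95% interval -0.41 to 0.18).

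Summed over the 4 NFI genes, which bind the same DNA palindrome as dimers, the level was 347 and 366 TPM in Qk_KO, against 277 and 241 TPM in control. The means were 356 ± 13.2 TPM in Qk_KO and 259 ± 26.0 TPM in control (SD, n = 2 each), a ratio of 1.38. Nfix made up 60.8% and 60.7% of this sum in Qk_KO, against 56.0% and 53.8% in control, and Nfib made up 28.2% and 29.7%, against 29.9% and 30.7%. Nfia contributed 5.07% and 4.49% in Qk_KO, against 6.43% and 6.63% in control, and Nfic 5.92% and 5.07%, against 7.62% and 8.87%. Within a library these shares do not depend on how libraries are scaled. They add to the whole, so a higher Nfix share means a lower joint share of the other NFI genes. The 4 shares are thus not separate results. The groups were apart for the sum and for all 4 shares, with an exact two-sided permutation p of 0.333 each, which is the smallest that 2 against 2 libraries allow and so cannot pass 0.05. In TPM, Nfix and Nfib made up the difference between the summed means, while the means of Nfia and Nfic were within 2 TPM of control.

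**Figure D2:**
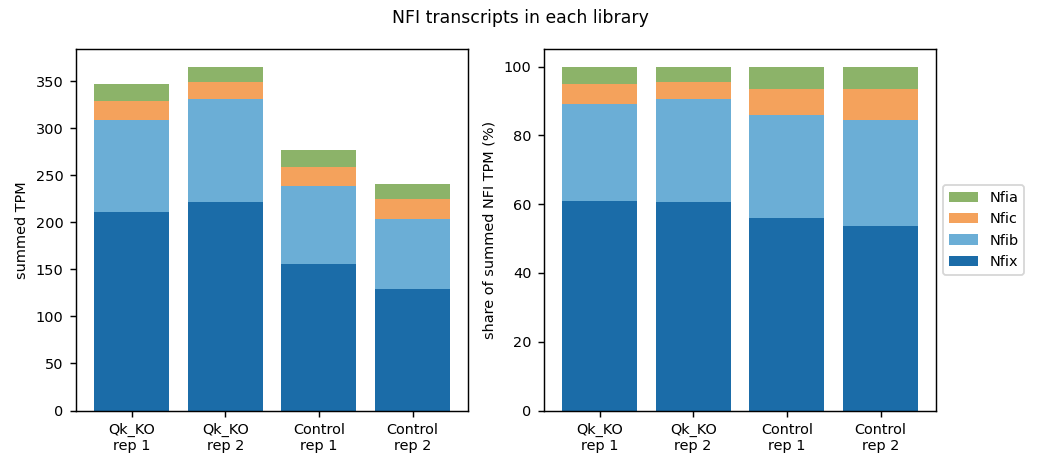
Left, TPM of Nfix, Nfib, Nfic and Nfia stacked for each library; right, each gene's share of the summed NFI TPM in percent, with Qk_KO libraries left of control libraries. The sum is 347 and 366 TPM in Qk_KO, against 277 and 241 TPM in control, and the Nfix share is near 61% in Qk_KO, against 56.0% and 53.8% in control.

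Sox9, the SoxE factor at the start of gliogenesis (chromosome 11, 112782224 to 112787760, plus strand), was at 58.1 and 55.3 TPM in Qk_KO, against 64.1 and 48.1 TPM in control. Both Qk_KO values lay between the controls. The log2 fold change was 0.03 (SE 0.155), and the 95% interval of -0.36 to 0.41 corresponds to between 0.781 and 1.33 times the control level. Sox8, a SoxE relative that acts with Sox9 and Sox10, was more abundant, at 317 and 428 TPM in Qk_KO, against 415 and 354 TPM in control, and its groups overlapped too. Sox10, the SoxE factor of oligodendrocytes, was at 2.38 and 7.55 TPM in Qk_KO, against 17.2 and 40.8 TPM in control, without overlap but with a wide spread in each group (log2 fold change -2.36, SE 0.553, adjusted p = 0.0701, limma). Sox10 was named here after its values were seen.

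Sox5 (chromosome 6, 143828425 to 144781977, minus strand) was at 17.3 and 17.1 TPM in Qk_KO, against 20.9 and 20.9 TPM in control. SoxD factors hold back oligodendrocyte differentiation in mice, and Sox5 also acts in deep-layer neurons. The replicates of Sox5 were closer to each other than those of any other of the factors, and the groups lay apart. The log2 fold change was -0.26 (SE 0.113, 95% interval -0.54 to 0.02), and it did not pass (adjusted p = 0.196, limma). Sox6, its SoxD partner (chromosome 7, 115470872 to 116038796, minus strand), was at 44.1 and 51.8 TPM in Qk_KO, against 43.0 and 46.8 TPM in control. Here the groups overlapped, with a log2 fold change of 0.09 (95% interval -0.22 to 0.39). Of the 13 other Sox genes listed, 10 were tested and none was called, with a median log2 fold change of 0.13. The most abundant, Sox4, which promotes neuronal gene expression, averaged 452 ± 6.48 TPM in Qk_KO and 352 ± 68.3 TPM in control (SD, n = 2 each, adjusted p = 0.167 by limma).

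Zbtb20, a zinc finger repressor (chromosome 16, 42875881 to 43642602, plus strand), was the least abundant factor. It was at 15.1 and 13.1 TPM in Qk_KO, against 10.5 and 10.4 TPM in control, so both Qk_KO values were higher. The log2 fold change was 0.40 (SE 0.137, 95% interval 0.05 to 0.74) and limma's adjusted p was 0.136. Pou3f2, a neuronal factor gene that Zbtb20 represses in mouse progenitors, also lay higher in both Qk_KO libraries, at 10.4 and 7.18 TPM, against 6.88 and 4.41 TPM in control (adjusted p = 0.222, limma), and was named after its values were seen. Of 8 such neuronal genes opposed by Zbtb20 or Sox5, 7 were tested and none was called. Their median log2 fold change was 0.31, beside 0.0358 over all genes tested. The most abundant of them, Pou3f3 and Cux1, both factors of upper-layer neurons, averaged 177 ± 10.2 and 176 ± 5.18 TPM in Qk_KO and 167 ± 20.6 and 142 ± 14.2 TPM in control (SD, n = 2 each). On the neuronal side 2 of 11 neuron markers were called higher, Ina and Snap25, beside 1.83% of all genes tested. The 11 summed to 1183 and 1255 TPM in Qk_KO, against 869 and 643 TPM in control. Their part in the Zbtb20 values was not tested. Both calls were lost with any 1 library left out, at adjusted p of 0.0554 to 0.16 for Ina and 0.0918 to 0.249 for Snap25 in limma, with no filter and without limma's trend, and that of Snap25 also with quantile normalization.

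Zeb2, which encodes a repressor that binds E-boxes (chromosome 2, 44983632 to 45117395, minus strand), was at 35.0 and 40.3 TPM in Qk_KO, against 35.6 and 43.9 TPM in control. The groups overlapped, and the log2 fold change was -0.07 (SE 0.145, 95% interval -0.44 to 0.29). Its antisense gene Zeb2os was at 6.83 and 4.10 TPM in Qk_KO and at 5.35 and 5.03 TPM in control. Without a stated strand setting, reads of such a pair cannot be told apart, and the same holds for Sox6 and Sox6os, which was at 1.06 and 0.16 TPM in Qk_KO and at 1.51 and 0.13 TPM in control. Zeb1, the relative of Zeb2, was at 76.6 and 69.4 TPM in Qk_KO, against 105 and 87.5 TPM in control (adjusted p = 0.119, limma). Its groups lay apart, as did those of 61.1% of all genes tested, 27.5% in this direction. Zbtb45, a relative of Zbtb20, was at 29.3 and 27.9 TPM in Qk_KO, against 22.4 and 21.8 TPM in control (adjusted p = 0.109, limma). Both were named after their values were seen, and none of the 12 tested genes of the list of Zeb and Zbtb relatives and partners was called. The most abundant, the corepressor genes Ctbp1 and Ctbp2, averaged 455 ± 2.64 and 152 ± 1.72 TPM in Qk_KO and 387 ± 48.4 and 129 ± 11.8 TPM in control (SD, n = 2 each).

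**Figure D3:**
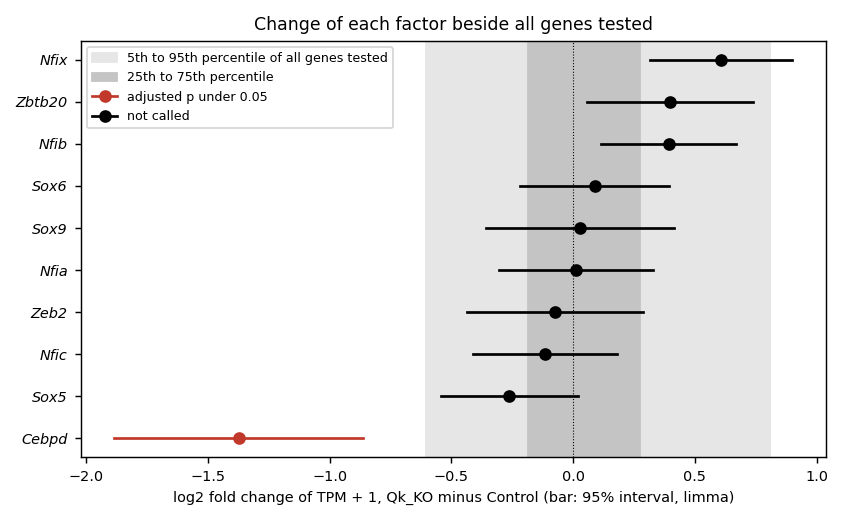
Log2 fold change of TPM + 1, Qk_KO minus control, for each factor (points) with limma's 95% interval (bars), over the 5th to 95th percentile (light) and the 25th to 75th percentile (dark) of all genes tested. Cebpd at -1.37, in red, passed the test and lies outside the light band, and Nfix at 0.61, Zbtb20 at 0.40 and Nfib at 0.39 lie above the dark band within the light band.

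Genes reported as targets of NFI factors and Sox9 in mice went both ways. Of 10 tested, 1 was called, Slc1a3, which encodes an astrocyte glutamate transporter and fell to 117 and 150 TPM in Qk_KO, against 338 and 435 TPM in control, with a log2 fold change of -1.53 (SE 0.174, limma's adjusted p = 0.0324). The median of the 10 was -0.01, and 3.24% of all genes tested were called. The list mixes genes that these factors induce with others that they repress, such as Hes1. Its signs and median thus do not show the direction of NFI or Sox9 activity. Gfap, the astrocyte filament, was at 44.0 and 72.2 TPM in Qk_KO, against 45.1 and 45.4 TPM in control. Apcdd1, Mmd2 and Zcchc24, which Sox9 and NFIA induce together at the start of gliogenesis in the spinal cord, were at 22.0 and 11.8 TPM, 37.8 and 79.5 TPM, and 71.5 and 66.8 TPM in Qk_KO, against 19.4 and 6.18 TPM, 73.2 and 79.2 TPM, and 88.6 and 92.1 TPM in control. Among these, the groups lay apart for Zcchc24 (adjusted p = 0.077, limma) and overlapped for Apcdd1 and Mmd2. Hes1, a Notch effector that NFIA represses, was at 17.3 and 16.8 TPM in Qk_KO, against 14.7 and 15.7 TPM in control. Apart from Slc1a3, these genes were named after their values were seen.

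Of 18 tested genes of the timing and competence of the switch, 1 was called, and it fell. Of all genes tested, 1.42% were called lower. Hmga1, a chromatin protein gene that keeps early progenitors neurogenic in mice, was at 47.9 and 69.6 TPM in Qk_KO, against 166 and 157 TPM in control. Its log2 fold change was -1.47 (SE 0.183, limma's adjusted p = 0.0362), and the median of the list was -0.02. Its relative Hmga2, named after its values were seen, was at 3.15 and 1.98 TPM in Qk_KO, against 4.75 and 4.54 TPM in control (adjusted p = 0.127, limma). The calls of Slc1a3 and Hmga1 were lost without control replicate 1 (adjusted p = 0.0843 and 0.106) and without control replicate 2 (0.205 and 0.234), and that of Slc1a3 also without Qk_KO replicate 1 (0.0621). With no filter or without limma's trend both were lost as well.

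**Figure D4:**
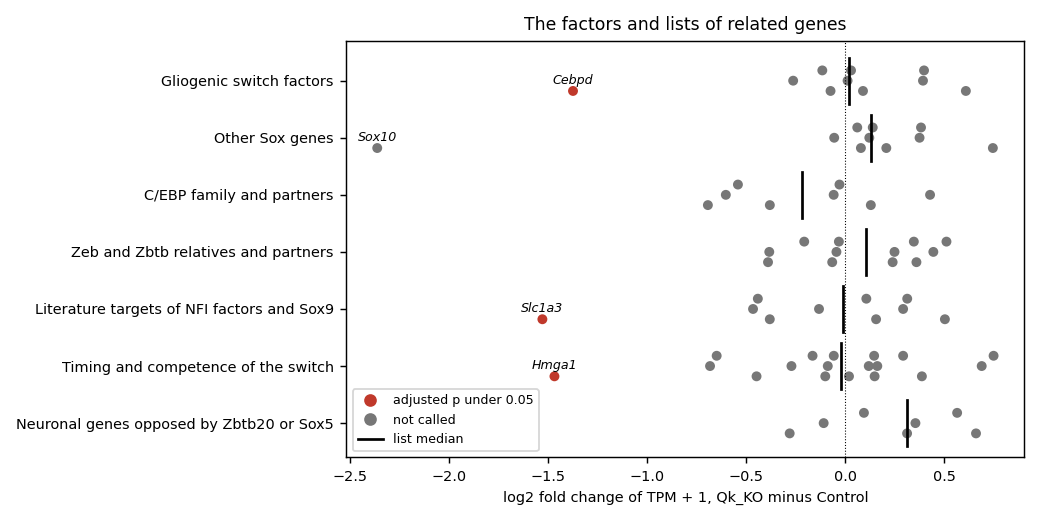
Log2 fold change of TPM + 1, Qk_KO minus control, of each tested gene of the 10 factors and of 6 lists of related genes; red points passed the test, grey points did not, vertical bars are list medians and points are spread vertically only for legibility. The medians lie between -0.22 for the C/EBP list and 0.31 for the neuronal genes opposed by Zbtb20 or Sox5, and Cebpd, Slc1a3 and Hmga1 are the points that passed.

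Markers of the labelled neural identity were present in all libraries: the 10 markers of neural stem cells and radial glia summed to between 6660 and 6980 TPM. Vim and Fabp7 made up most of each sum. Vim was at 3373 and 2392 TPM in Qk_KO, against 2370 and 2346 TPM in control. Fabp7 was at 2354 and 3144 TPM in Qk_KO, against 3010 and 2957 TPM in control. In this list Pax6 and Tnc were called higher in Qk_KO and Slc1a3 and Ptprz1 lower. Of all genes tested, 1.83% were called higher and 1.42% lower. The 10 astrocyte markers summed to 719 and 668 TPM in Qk_KO, against 858 and 937 TPM in control, with 1 called higher (Aqp4) and 2 lower, among them Slc1a3. The lower sum rested on Slc1a3, whose group means (133 TPM for Qk_KO, 387 TPM for control) differed by more than the summed means did. Aldh1l1 went the other way without a call, with means of 169 TPM for Qk_KO and 42.4 TPM for control. Of the 10 log2 fold changes 4 were positive and 6 negative, and their median was -0.09. Among 10 oligodendrocyte precursor markers 2 were called lower, Pdgfra and Lhfpl3. The median log2 fold change of the 10 was -0.75, with 9 negative and 1 positive. Their sums overlapped, at 978 and 1210 TPM in Qk_KO, against 1322 and 1144 TPM in control. The most abundant, Olig1 and Olig2, had log2 fold changes of 0.13 and -0.07, and their groups overlapped. Vim, Fabp7, Aldh1l1, Olig1 and Olig2 were named after their values were seen. Of the interneuron markers tested none was called, and Dlx2 was at 76.0 and 1.70 TPM in Qk_KO, against 2.60 and 2.32 TPM in control. No pericyte, fibroblast and meninges marker or endothelial marker was called, with Col1a1 at 16.1 and 15.9 TPM in Qk_KO, against 26.6 and 20.4 TPM in control, and the 8 endothelial markers, led by Kdr and Flt1, summed to 5.40 to 7.45 TPM in every library. Among the marker genes called here, Pax6, Tnc, Ptprz1 and Lhfpl3 lost their calls with any 1 library left out, at adjusted p in limma of 0.0727 to 0.215, 0.0528 to 0.239, 0.0952 to 0.262 and 0.0548 to 0.271. Pdgfra lost its call without control replicate 1 (adjusted p = 0.128, limma), without control replicate 2 (0.241) and without Qk_KO replicate 1 (0.0683), and Aqp4 without control replicate 1 (0.0573) and without control replicate 2 (0.0772). With no filter the calls of these 6 genes were lost, and without limma's trend all but that of Aqp4. The part of these other cell types in the values of the 10 factors was not tested.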

How the data were processed

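Per the labels' protocols, poly(A)-selected RNA was turned into Ion Total RNA-Seq libraries and read on an Ion Proton instrument. The authors deposited 1 table of TPM per library, by Entrez gene number and symbol. The submitters' processing notes name RSEM 1.3.0, STAR 2.4.1d and the builds GRCm38.p4 and mm10. No source used here gives the annotation, read filters or strand setting. TPM values add to a fixed total, so abundant genes that change shift all others. Depth per sample is unknown.

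The 4 libraries, grouped by the labels, entered 1 limma 3.58.1 fit in R 4.3.3 on log2(TPM + 1) of genes averaging 1 TPM or more (lmFit, eBayes with a trend, 5.57 degrees of freedom, two-sided, Benjamini-Hochberg over all genes tested). The pseudocount shrinks the fold changes of low genes. The fit was tested on simulated data. Alternatives were pseudocounts of 0.1 and 0.5, no filter (genes above 0 TPM in any library), quantile normalization, median-ratio scaling, no trend, a filter at a mean of 5 TPM, a block for the replicate number, and each library left out in turn.

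The factors and lists were chosen with earlier results of these data known. The rule for named genes took the 10 factors and Qk, and from each list up to 4 called genes whose groups did not overlap or, with none called, the 2 with the highest mean TPM. Of 171 list entries, 171 were matched. Of the genes this rule took, 2 are not reported here. Gene positions and sequences came from GENCODE M21 (GRCm38), in which 12269 of the genes tested had a 3′ untranslated region, and both cores were searched on the transcript's strand. Python 3.11.15 with matplotlib 3.10.9 drew the figures.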

Additional observations from a re-analysis of the deposited data

How the results depend on the processing

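Of all genes, 430 passed. The count was 0 with no filter (where limma gave 4327 genes an unadjusted p under 0.05), 41 without a trend, 649 at a mean of at least 5 TPM, and between 4 (without control replicate 2) and 148 (without Qk_KO replicate 2) with 1 library left out, with 10 without control replicate 1 and 60 without Qk_KO replicate 1. Of the 10 factors, 1 passed in the fit as reported, 0 with no filter or without a trend, 2 at a mean of at least 5 TPM (Cebpd and Nfix), and 0 to 1 with 1 library left out. The fits that leave out a library rest on 1 residual degree of freedom, and the lone library is assumed to vary like the other group. With the replicate number as a block, 1278 genes and 2 factors passed (Cebpd, adjusted p = 0.0266, and Nfix, 0.0426, by limma). The labels share only a number between groups, and the differences of replicate 1 minus 2 in Qk_KO and in control correlated at 0.114 across genes. Nfib, Nfic, Nfix, Sox5, Zbtb20 and Cebpd kept their sign under all 12 alternatives, which for groups that do not overlap only the rescaled values could have changed. Signs of log2 fold changes near 0 changed. Nfia was at -0.0197 with median-ratio scaling and -0.0377 with quantile normalization, and Sox9 at -0.0036 with median-ratio scaling. With 1 library left out, Nfia lay between -0.0642 and 0.0868, Sox9 between -0.175 and 0.232, Sox6 between -0.0257 and 0.204, and Zeb2 between -0.222 and 0.0726, and the lower end came without control replicate 2 for Nfia and Sox9, without control replicate 1 for Zeb2 and without Qk_KO replicate 2 for Sox6. Why the counts differed between alternatives was not tested, also where fewer genes or libraries entered. Depth is unknown, so the counting error of the less abundant factors cannot be given.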
